A study of Mus musculus with 6 samples.

Results

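The E2F transcription factors and the pocket proteins that bind them were described in 6 mouse RNA-seq libraries. The members were the 10 genes E2f1 to E2f8, Rb1 and Rbl1, matched by gene symbol. All 10 had a row among the 18908 genes of the table, and all 10 passed the filter on low counts. The study's title concerns VprBP, the older name of Dcaf1, in osteoclast differentiation through phosphorylation of histone H2A. Its 6 libraries are 3 from cells given a control shRNA (Contsh) and 3 from cells given an shRNA against VprBP (VprBPsh), a hairpin RNA meant to lower that transcript. The labels call the cells bone-marrow-derived macrophages (BMDM) and give the genotype as WT for the control libraries and VprBP1 Knockdown for the others. No strain, age, sex, hairpin sequence, time or differentiation stimulus is given in the labels. Whether the 3 libraries of a label are separate cultures is not stated, and p-values therefore cover only the spread between libraries, which may be technical.

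E2F factors bind DNA next to genes of the cell cycle, in most cases as dimers with a DP protein. E2F1, E2F2 and E2F3 are classed as activators of genes needed to copy DNA. E2F4 and E2F5 act mainly as repressors in resting cells, where they are bound by pocket proteins. E2F6 represses without pocket proteins as part of a polycomb-type complex, and the atypical factors E2F7 and E2F8 bind DNA without a DP partner and repress E2F targets late in the cycle. The pocket proteins RB1 and RBL1 (p107) hold E2F factors inactive until cyclin-dependent kinases phosphorylate them. E2f1, E2f2, E2f7, E2f8 and Rbl1 are themselves known targets of E2F factors.

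Several features of the whole series bear on every value below. Total counts were 16839445 to 21838875 per library, and a count of 0 would allow a level of up to 0.144 to 0.186 CPM (3 counts, counting error only). Levels are in CPM, which are counts for each 1000000 counts of a library size corrected by TMM. Dcaf1, the targeted gene, stood at 42.2, 43.5 and 40.7 CPM in the Contsh libraries and at 36.0, 34.6 and 36.8 CPM in the VprBPsh ones, a log2 difference of -0.24 (SE 0.07, edgeR adjusted p = 0.00625). Dcaf1 shares 146 of its 7786 exon bases with Manf on the opposite strand, which fell from 1363 to 139 CPM (log2 -3.30), and 75 with Rbm15b, also on the opposite strand and lower (log2 -0.40). Without a stated strand setting reads in these bases cannot be told apart, and their part in the Dcaf1 difference was not tested. The Dcaf1 gap is small, so the groups are called by their label names, Contsh and VprBPsh, and each direction below is one between labels. Of 15 macrophage markers 11 had no row, Csf1r, Adgre1, Itgam, Spi1 and Ptprc among them, and the other 4 summed to 37.1 to 40.2 CPM in the Contsh and 16.5 to 18.2 CPM in the VprBPsh libraries. Cd68 alone was lower (31.6 and 1.01 CPM), Mertk (5.35 and 13.3 CPM) and Lyz2 (1.05 and 2.51 CPM) were higher, and Cd14 was not called. The 8 pigment cell markers summed to 21075 to 21454 and 19654 to 20163 CPM, so the labelled cell type did not match its markers. Single pigment cell markers differed in both directions, with 5 higher, among them Tyr (3.79-fold), Sox10 (3.51-fold) and Mitf (3.44-fold), and Slc45a2 (3.81-fold), Pmel (2.78-fold) and Mlana (2.68-fold) lower. The share of counts on mitochondrial genes was 8.65% to 9.48% and 4.89% to 5.56%. The part of these differences in the results on the E2F genes was not tested.

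The promoter sequences of 4 members are shown first, because several E2F family genes are known targets of E2F factors and these upstream windows hold the words searched for. RefSeq promoter windows (build GRCm38.p6, 250 bases before to 50 after each start) were found for 7 of the 10 members, E2f1, E2f2, E2f3, E2f6, E2f7, E2f8 and Rbl1. Capitals mark a match, on either strand, to an E2F word (TTTCCCGC, TTTGGCGC, TTTCGCGC or TTTGCCGC) or to the CHR word of late cell cycle genes (TTTGAA). All 4 starts coincide with the outer end of the gene in GENCODE M21, so the bases shown lie upstream of the annotated gene. Each is written 5′ to 3′ along the gene and ends at the base before the start. Rbl1 is shown for chr2:157204535-157204634 on the minus strand, E2f3 for chr13:29986064-29986163 on the minus strand, E2f8 for chr7:48881597-48881696 on the minus strand and E2f7 for chr10:110745189-110745438 on the plus strand.
Rbl1: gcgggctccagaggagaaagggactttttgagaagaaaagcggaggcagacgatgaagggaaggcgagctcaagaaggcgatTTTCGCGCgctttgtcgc
E2f3: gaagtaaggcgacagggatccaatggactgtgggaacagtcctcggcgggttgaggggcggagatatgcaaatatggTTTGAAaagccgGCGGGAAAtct
E2f8: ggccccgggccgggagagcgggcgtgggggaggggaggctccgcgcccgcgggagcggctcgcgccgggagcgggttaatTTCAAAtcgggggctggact
E2f7: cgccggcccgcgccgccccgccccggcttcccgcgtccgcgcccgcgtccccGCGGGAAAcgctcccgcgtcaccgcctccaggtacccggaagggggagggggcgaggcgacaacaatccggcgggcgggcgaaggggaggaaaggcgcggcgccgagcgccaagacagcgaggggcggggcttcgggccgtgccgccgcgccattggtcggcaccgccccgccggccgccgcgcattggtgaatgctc

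In Rbl1 the E2F word lay at -18 to -11, counted from the start with -1 as the base before it, in forward orientation. In the outer start of E2f3 it lay at -11 to -4 in reverse orientation, beside a CHR word. E2f7 held its word with its first base at -198 and its last at -191, in reverse orientation. E2f8 held no E2F word but a CHR word at -20 to -15. E2f2 held an E2F word from base 40 to 47 after its outer RefSeq start and is not printed. That start, 136172274, lies upstream of the GENCODE gene, and so does the word. The inner RefSeq start of E2f2 lies 8388 bases inside the GENCODE gene, and its window held a CHR word at -31 to -26. No word was found in the windows of E2f1 and E2f6, and the RefSeq start of E2f1 lies 466 bases inside the GENCODE gene, so its window is not the outer promoter. In all, 4 of the 7 members had an E2F word in some window, and 3 of 7 had a CHR word. Over all 27025 genes with a window, tested or not, the shares were 2.60% and 20.2%. Of the 10446 tested genes with a window, as all 7 members are, 484 held an E2F word and 1503 a CHR word. A match describes the letters and not the binding of a factor. No matches overlapped in the members' windows.

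**Figure D1:**
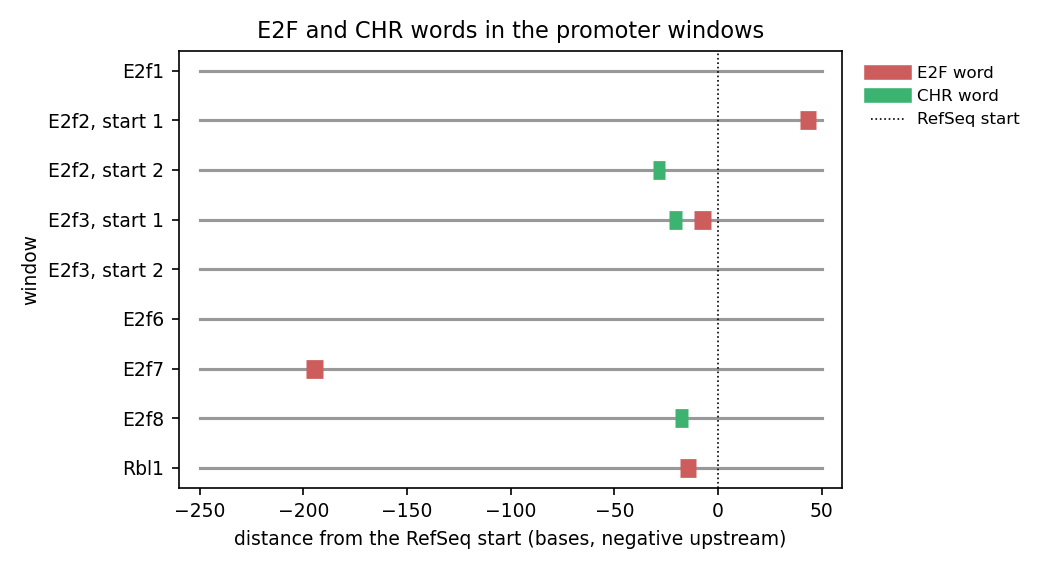
Positions of E2F words (red) and CHR words (green) in the 9 RefSeq windows of the 7 members with sequence, from 250 bases before to 50 after the start; the x axis is distance from the start in bases. The words of Rbl1, E2f3 and E2f8 lie close upstream of the start, and that of E2f7 lies further upstream.

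The single comparison of the design is VprBPsh against Contsh libraries. Activator genes were higher in the VprBPsh libraries, and the pair E2f4 and E2f5 was lower. The atypical repressors E2f7 and E2f8 had the largest differences of the family, and both pocket protein members were higher. E2f6 was not called. A gene was called at an adjusted p below 0.05 in edgeR's quasi-likelihood test over 14641 genes. By that rule 7 of the 10 members were higher and 2 lower, whereas 37.9% of all tested genes were higher and 37.0% lower, or 75.0% in either direction. The 3 libraries of a label did not overlap with those of the other for 9 of the 10 members, against 77.2% of all tested genes. With so many genes differing between the labels, the share of 9 in 10 members called is near that background, and the values of each member carry the description.

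**Figure D2:**
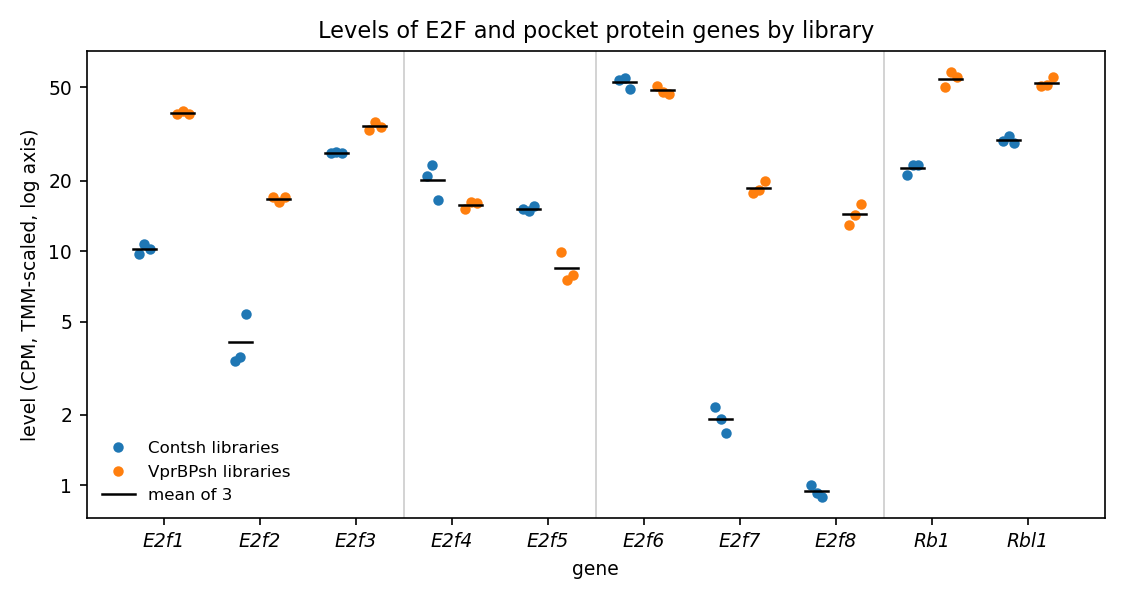
Level of each member in each library in CPM on a log axis; blue points are the 3 Contsh and orange points the 3 VprBPsh libraries, and black bars are the means of 3. The orange points lie above the blue ones for E2f1, E2f2, E2f3, E2f7, E2f8, Rb1 and Rbl1, below them for E2f4 and E2f5, and overlap for E2f6.

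Among the activators, E2f1 (ENSMUSG00000027490.17; GRCm38 chromosome 2, 154559407 to 154569892, minus strand) stood at 9.76, 10.7 and 10.2 CPM in the Contsh libraries and at 38.4, 39.8 and 38.4 CPM in the VprBPsh ones. Every VprBPsh library was above every Contsh one, and the spread within a label was small beside the gap. E2f1 rose 3.81-fold from a mean of 10.2 ± 0.478 to 38.9 ± 0.805 CPM (SD, n = 3 each; log2 difference 1.93, SE 0.09, edgeR adjusted p = 1.50e-12). Of all tested genes, 86.9% differed by less.

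E2f2 (ENSMUSG00000018983.9; chromosome 4, 136172394 to 136196057, plus strand) stood at 3.40, 3.53 and 5.37 CPM in the Contsh and at 16.98, 16.1 and 17.1 CPM in the VprBPsh libraries. Contsh library 3 was the highest of its label, and the groups did not overlap. The rise was 4.10-fold (log2 2.04, SE 0.17, edgeR adjusted p = 3.53e-09), with a 95% interval of 1.68 to 2.39 on the log2 scale that holds the estimate for E2f1.

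E2f3 (ENSMUSG00000016477.18; chromosome 13, 29906575 to 29986063, minus strand) differed by less than the other activators. Its levels were 26.1, 26.6 and 26.3 CPM in the Contsh and 32.9, 35.5 and 33.8 CPM in the VprBPsh libraries. The groups did not overlap, and the rise was 1.29-fold (log2 0.37, SE 0.08, edgeR adjusted p = 0.000337). Its 95% interval of 0.21 to 0.54 lay below those of E2f1 and E2f2. The gene makes a long and a short form from separate starts, and the table counts them together.

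The pocket-bound repressors moved in the opposite direction. E2f5 (ENSMUSG00000027552.14; chromosome 3, 14578641 to 14606309, plus strand) stood at 15.1, 14.8 and 15.6 CPM in the Contsh and at 9.87, 7.56 and 7.93 CPM in the VprBPsh libraries. VprBPsh library 1 was the highest of its label and still below each Contsh library. E2f5 was 1.80-fold lower (log2 -0.85, SE 0.13, edgeR adjusted p = 1.82e-05). The protein-coding gene 1810022K09Rik on the opposite strand shares 26 of the 1782 exon bases of E2f5. It had 3065.1 counts over all 6 libraries, and its part in the E2f5 difference was not tested.

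E2f4 (ENSMUSG00000014859.9; chromosome 8, 105297663 to 105305370, plus strand), the main E2F of resting cells, stood at 20.9, 23.2 and 16.5 CPM in the Contsh and at 15.1, 16.2 and 16.0 CPM in the VprBPsh libraries. The groups were separated by a narrow gap, and Contsh library 3 was close to the VprBPsh values. E2f4 was 1.28-fold lower (log2 -0.36, SE 0.12, edgeR adjusted p = 0.0132). This call was lost without Contsh library 2 (log2 -0.26, adjusted p = 0.0873) and with scaling by library size only (log2 -0.24, adjusted p = 0.0817).

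E2f6 (ENSMUSG00000057469.8; chromosome 12, 16810963 to 16839742, plus strand) was the E2F gene with the highest CPM and was not called. It stood at 53.8, 54.7 and 49.3 CPM in the Contsh and at 50.8, 47.9 and 46.8 CPM in the VprBPsh libraries, and the groups overlapped. The log2 difference was -0.12 with a 95% interval of -0.26 to 0.03 (edgeR adjusted p = 0.128). It was called lower without Contsh library 3 (log2 -0.17, adjusted p = 0.0434) and when only nuclear protein-coding genes were fitted (log2 -0.16, adjusted p = 0.0416).

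The atypical repressors were low in the Contsh libraries. E2f8 (ENSMUSG00000046179.17; chromosome 7, 48866429 to 48881596, minus strand) stood at 1.005, 0.929 and 0.895 CPM there, from 21, 15 and 15 counts, and at 12.9, 14.2 and 16.0 CPM in the VprBPsh libraries, from 240, 263 and 306 counts. The groups were far apart, and all 6 values were above the floor of 3 counts. The rise was 15.1-fold with a 95% interval of 11.2 to 20.2 (log2 3.91, SE 0.20, edgeR adjusted p = 4.51e-12). The noncoding gene Gm2788 on the opposite strand shares 610 of the 5443 exon bases of E2f8 and had 28.2 counts over all 6 libraries. Of all tested genes, 97.0% differed by less.

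E2f7 (ENSMUSG00000020185.16; chromosome 10, 110745439 to 110787384, plus strand) stood at 2.15, 1.92 and 1.67 CPM in the Contsh libraries, from 45, 31 and 28 counts, and at 17.7, 18.3 and 19.97 CPM in the VprBPsh ones. No library of a label came near the other label. The rise was 9.66-fold (95% interval 7.62 to 12.2; log2 3.27, SE 0.16, edgeR adjusted p = 2.69e-12). The log2 intervals of E2f7 and E2f8, 2.93 to 3.61 and 3.49 to 4.34, overlapped, and both lay above those of every other member.

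Both pocket protein members were higher in the VprBPsh libraries. Rbl2, the remaining pocket protein gene, is not a member and is given with the MuvB core below. Rb1 (ENSMUSG00000022105.6; chromosome 14, 73183673 to 73325822, minus strand), the retinoblastoma gene, stood at 21.2, 23.3 and 23.3 CPM in the Contsh and at 50.3, 58.2 and 55.1 CPM in the VprBPsh libraries. The groups did not overlap, and the rise was 2.42-fold (log2 1.27, SE 0.08, edgeR adjusted p = 8.68e-11). Lpar6 and Rcbtb2 lie on the opposite strand and share 408 and 488 of the 6015 exon bases of Rb1, and without a stated strand setting their reads cannot be told apart there. Both were lower in the VprBPsh libraries, Lpar6 with a log2 difference of -1.43 and Rcbtb2 with -0.25.

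Rbl1 (ENSMUSG00000027641.13; chromosome 2, 157145893 to 157204534, minus strand), which encodes p107 and binds mainly E2F4, stood at 29.5, 30.9 and 29.0 CPM in the Contsh and at 50.7, 51.0 and 55.3 CPM in the VprBPsh libraries. The groups did not overlap, and the rise was 1.76-fold (log2 0.81, SE 0.07, edgeR adjusted p = 1.05e-08). Its 95% interval of 0.66 to 0.96 lay below that of Rb1, 1.11 to 1.44.

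**Figure D3:**
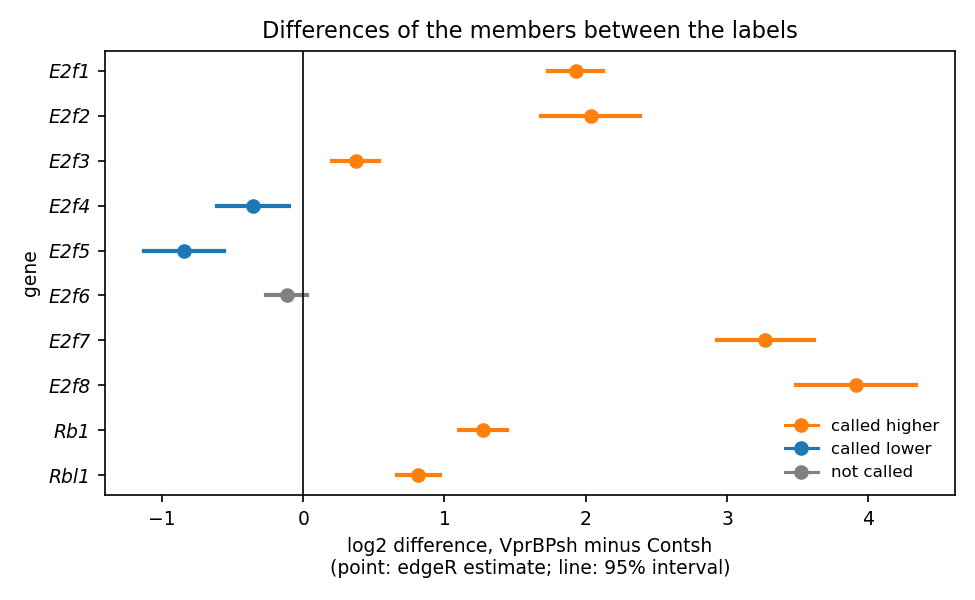
Log2 difference of each member, VprBPsh minus Contsh; points are edgeR estimates and lines 95% intervals, coloured by whether the gene was called higher, called lower or not called. E2f7 and E2f8 lie between 3 and 4, E2f1 and E2f2 near 2, and E2f4, E2f5 and E2f6 below 0, with the line for E2f6 crossing 0.

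Levels were also compared between members, as CPM per kilobase of annotated exon. In the Contsh libraries the order was E2f6 (9.29 ± 0.509), E2f5 (8.52 ± 0.237), E2f4 (8.24 ± 1.40), Rbl1 (4.97 ± 0.165), E2f3 (4.85 ± 0.0421), Rb1 (3.75 ± 0.205), E2f1 (3.24 ± 0.151), E2f2 (0.840 ± 0.226), E2f7 (0.213 ± 0.0267) and E2f8 (0.173 ± 0.0103), all in CPM per kilobase (mean ± SD, n = 3). The ranges of E2f6 and E2f5, of E2f5 and E2f4, and of Rbl1 and E2f3 overlapped, so these neighbours are not separated with this length. E2f6 has 5663 annotated exon bases but a longest transcript of 3018, against 1782 and 1779 for E2f5. With the longest transcript as gene length E2f6 therefore stood further above E2f5, and E2f4 came ahead of E2f5. The repressors E2f4, E2f5 and E2f6 held the first 3 places, and the atypical factors the last 2.

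In the VprBPsh libraries E2f1 led the order of levels per kilobase, at 12.3 ± 0.255 CPM per kilobase. Rb1 (9.07 ± 0.659), Rbl1 (8.73 ± 0.426) and E2f6 (8.57 ± 0.371) followed with overlapping ranges between neighbours. E2f4 (6.44 ± 0.228) and E2f3 (6.28 ± 0.238) overlapped as well, ahead of E2f5 (4.74 ± 0.695), E2f2 (3.43 ± 0.103), E2f8 (2.64 ± 0.278) and E2f7 (2.07 ± 0.129). E2f1 moved from the seventh place to the first, and E2f5 from the second to the seventh. With the longest transcript as gene length, which differs most for E2f6 and E2f7, E2f6 came first and E2f1 second in these libraries. E2f8 then came ahead of E2f2, and 6 of the 10 members changed place.

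**Figure D4:**
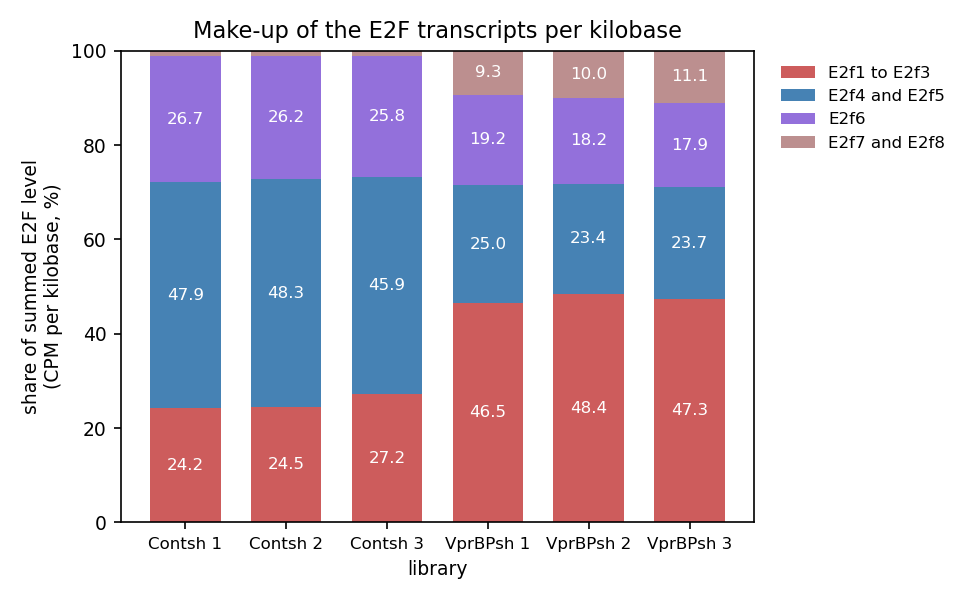
Share of the summed E2F level per kilobase, in percent, held by E2f1 to E2f3, E2f4 and E2f5, E2f6, and E2f7 and E2f8 in each of the 6 libraries. The activators hold 24.2% to 27.2% in the Contsh and 46.5% to 48.4% in the VprBPsh libraries.

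The make-up of the E2F transcripts by class followed from these levels. E2f1, E2f2 and E2f3 together made up 24.2%, 24.5% and 27.2% of the summed E2F level per kilobase in the Contsh libraries and 46.5%, 48.4% and 47.3% in the VprBPsh ones. E2f4 and E2f5 made up 47.9%, 48.3% and 45.9% and then 25.05%, 23.4% and 23.7%. The atypical pair E2f7 and E2f8 held 1.04% to 1.19% of the sum in the Contsh and 9.29% to 11.1% in the VprBPsh libraries. The groups did not overlap in any of these shares, which are descriptions without a test.

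The sum over E2f4 to E2f8, with E2f7 and E2f8 higher and E2f4 and E2f5 lower, overlapped between the labels per kilobase but not in CPM. In CPM it was 84.0 to 95.6 in the Contsh and 104.2 to 106.6 in the VprBPsh libraries. Per kilobase it was 26.9, 27.8 and 24.6 CPM per kilobase in the Contsh and 25.04, 23.95 and 24.4 CPM per kilobase in the VprBPsh libraries. The sum over the activators was 8.60, 9.02 and 9.18 CPM per kilobase and then 21.7, 22.5 and 21.9. The ratio of activators to all other E2F transcripts was 0.319 to 0.374 in the Contsh and 0.868 to 0.938 in the VprBPsh libraries, so activator transcripts stayed below the others in every library. Rb1 stood at 0.715 to 0.7995 of Rbl1 per kilobase in the Contsh and at 0.988 to 1.14 in the VprBPsh libraries. In these bulk libraries more RNA per cell and more cells that carry a transcript cannot be told apart.

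The partners of the E2F factors were read from lists written by function, beside all tested genes, of which 37.9% were higher and 37.0% lower with a median log2 difference of -0.01. Both DP genes were higher. Tfdp1, the common dimer partner, was 1.45-fold higher (53.2 and 77.1 CPM, edgeR adjusted p = 3.37e-06), and Tfdp2 2.13-fold (21.1 and 44.9 CPM, adjusted p = 1.00e-09). The means given here and below are those of the Contsh libraries first.

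The MuvB core joins p107 or p130 with E2F4 to form the repressive DREAM complex, and joins B-MYB and FOXM1 to activate late cell cycle genes. Of 8 genes in this list, 3 were higher, 3 lower and 2 not called, with a median log2 difference of 0.10. The core subunits Lin52, Lin37 and Lin54 were lower, by -1.79, -1.13 and -0.58 on the log2 scale, while Lin9 was not called (13.0 and 13.4 CPM) and the histone-binding subunit Rbbp4 was 1.37-fold higher. Rbl2, the gene of the pocket protein p130, was 1.70-fold higher, from 24.3 to 41.3 CPM. Foxm1, a factor that drives mitotic genes, was 31.0-fold higher (2.28 and 73.1 CPM), whereas Mybl2, the gene of B-MYB, was not called (10.6 and 11.9 CPM, 1.12-fold, edgeR adjusted p = 0.327).

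Of 9 genes of the E2F6 repressor complex, 3 were higher, 5 lower and 1 not called, with a median of -0.25. The subunits Pcgf6 (85.1 and 36.7 CPM), Mga (82.0 and 44.0 CPM), Max, L3mbtl2 and Ring1 were lower, by 0.25 to 1.22 on the log2 scale. Cbx3, a chromodomain protein, was 2.71-fold higher, and Yaf2 and Rybp were 1.54-fold and 1.36-fold higher. Rnf2 was not called. E2f6 itself, as given above, was not called, so several of its partner transcripts were lower while its own difference did not pass the test.

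Cyclins and kinases that phosphorylate pocket proteins were mostly higher. Of 9, 8 were higher and 1 was not called, with a median of 1.49. Ccnd3 rose 8.41-fold (32.5 to 273 CPM), Ccnd1 4.42-fold and Ccnd2 2.10-fold, and the cyclin E genes Ccne1 and Ccne2, which are E2F targets, rose 2.81-fold and 5.01-fold. Ccna2 rose 8.39-fold. The kinase genes differed less, with Cdk6 1.40-fold and Cdk2 1.22-fold higher and Cdk4 not called (168 and 167 CPM).

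Of 7 genes that encode inhibitors of these kinases, 5 had a row, 4 of them higher and 1 lower, with a median log2 difference of 1.013. Cdkn1a, the gene of p21, was lower (412 and 254 CPM, log2 -0.70), and Cdkn1b, the gene of p27, was 2.02-fold higher (139 and 281 CPM). Cdkn2c, which is an E2F target that blocks CDK4 and CDK6, was 3.52-fold higher, Cdkn2d 2.13-fold and Cdkn1c 1.86-fold. Cdkn2a, the gene of p16 and ARF, and its neighbour Cdkn2b, the gene of p15, had no row. Genes with a row had at least 10 counts summed over the 6 libraries.

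Target genes of E2F that serve entry into S phase were higher with a single exception. Of 30 genes, 29 were higher and 1 lower, with a median log2 difference of 1.92. The smallest p-values belonged to Mcm5, a subunit of the replicative helicase (14.9-fold, 4.80 to 71.997 CPM), Dnmt1, the maintenance DNA methyltransferase (4.95-fold), Uhrf1, which recruits it (12.3-fold), and Rrm2 and Rrm1, which make deoxyribonucleotides (5.67-fold and 5.62-fold). Cdc25a, a phosphatase that activates CDK2, was the exception, at 35.3 and 26.4 CPM (log2 -0.42, edgeR adjusted p = 0.000308). Replication genes were known to be higher in these libraries when the list was written, so its count is a description.

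**Figure D5:**
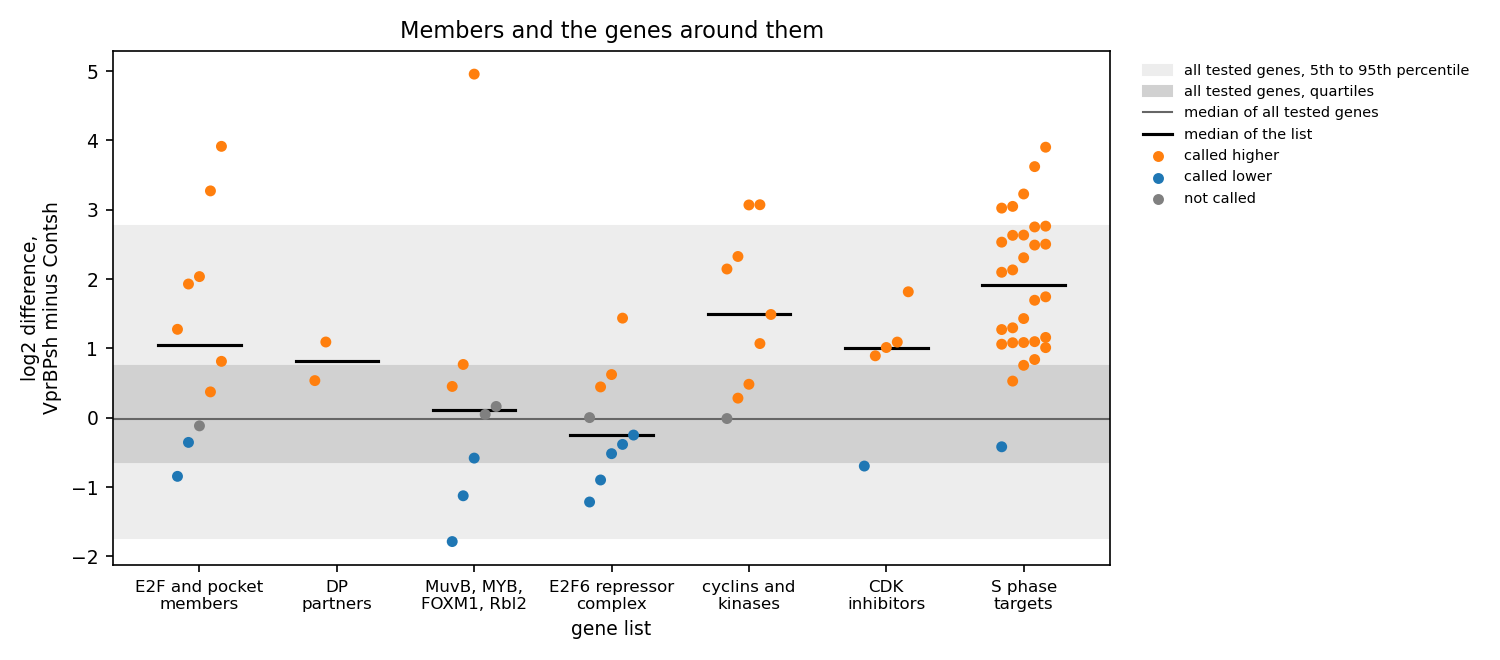
Log2 differences, VprBPsh minus Contsh, of the members and of the genes in 6 lists around them; each point is a gene, black bars are list medians, and grey bands are the quartiles and the 5th to 95th percentiles of all tested genes. The S phase targets lie above 0 except for 1, and the MuvB and E2F6 complex lists spread on both sides of 0.

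The promoter words were set beside these differences. Of the 30 S phase targets, 26 had a RefSeq window and 15 of these held an E2F word. That list was written as one of E2F targets, so its count of words is a description. The 15 genes are also among the 484 given next. Of the 10446 tested genes with a window, 484 held an E2F word, and 44.8% of these were higher and 33.9% lower, with a median log2 difference of 0.12. Among the 9962 tested genes with no such word, 39.7% were higher and 38.9% lower, with a median of -0.002. The 1503 genes that held a CHR word were similarly placed, with 42.9% higher, 33.9% lower and a median of 0.102. Over all 10446 tested genes with a window, 39.9% were higher and 38.6% lower, with a median of 0.006. For the 77 genes that held both an E2F and a CHR word in any of their windows, 53.2% were higher and 24.7% lower, with a median of 0.38. Among these, E2f3 held both words in the same window and E2f2 in separate windows. These shares are descriptions without a test.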

How the data were processed

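The authors deposited expected counts, estimated reads per gene not scaled between libraries. The submitters' processing notes name Partek and the build mm10. The aligner, the counter, and the strand and annotation settings were not given in the sources used here. Of the 18908 gene IDs, 18501 matched GENCODE M21 (GRCm38), and all of these had the same start there. For each member the counts lay within 0.164 of a whole number in every library.

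Rounded counts were fitted with edgeR 4.0.16 under R 4.3.3 (quasi-likelihood F test, TMM scaling, filterByExpr, group as the only term), with Benjamini-Hochberg adjustment over all 14641 tested genes. The SE of a log2 difference was derived from the test, as its absolute value divided by the square root of the F statistic. The 95% intervals are the estimate plus or minus that SE times a quantile of the t distribution, an approximation that edgeR does not itself print. Sequences and promoter windows came from RefSeq tables.

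The members and gene lists were chosen with earlier results of these data known. All 10 members were described. Other lists were counted whole, and of the S phase list the 5 smallest p-values and each gene called lower were named. Same-numbered Contsh and VprBPsh libraries did not deviate together (correlations -0.03, 0.01 and -0.04 across genes), so the numbers were not used as pairs. Alternatives used other scalings, filters and tools (DESeq2 1.42.0, limma 3.58.1), the replicate number as a block, and each library left out.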

Additional observations from a re-analysis of the deposited data

How the results depend on the processing

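Under 15 alternatives (4 scalings or gene sets, 2 filters, DESeq2, limma-voom, the replicate block and each of the 6 libraries left out), no member changed direction and the 7 members called higher all kept their call wherever they were tested. E2f8 fell out of the test under the filter of a mean of at least 1 CPM in both groups. E2f4 lost its call with library size only (log2 -0.24), which left 1 member lower, moved the median log2 difference of all genes from -0.01 to 0.10 and gave 6160 higher and 4719 lower calls. Leaving out 1 library gave 1 to 3 members lower, with E2f4 between -0.49 and -0.26 on the log2 scale. E2f6 became called lower among nuclear protein-coding genes (log2 -0.16) and stood at -0.00135 with library size only, and at -0.173 to -0.0841 with 1 library left out. With the longest transcript as length, the activator share of the E2F level was 21.02% in the Contsh and 40.3% in the VprBPsh libraries, against 25.3% and 47.4% with all exons. With the replicate block 10649 genes were called in place of 10974, and it changed no member's call. Depth limits E2f7 and E2f8 most, with 15 to 45 counts in each Contsh library. The cause of these shifts was not tested.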
